A study of Mus musculus with 9 samples.

Results

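RNA that co-precipitated with Pumilio2 (Pum2) from the embryonic mouse cortex was compared with total RNA of the same kind of lysate. The comparison used 6 of the 9 arrays in the study, 3 of the Pum2 precipitate and 3 of input RNA, and 22180 genes, each represented by its brightest array feature that carries a single gene symbol. All samples came from the cortex of wild-type CD1 embryos at E12/13. The precipitates were made with a rabbit antibody against Pumilio2 or with rabbit IgG, and the input was total RNA with no antibody. A whole dissected cortex is a mixture of cells, and no sorting or cell-type-specific tag was used. The labels give 3 biological replicates of each kind and do not say how many embryos each one pools. Values are log2 signals of an RMA-normalised gene array, so each difference is relative to the other RNAs on the array, and the total amount of RNA in a precipitate is not measured.

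Pumilio proteins bind a short element in the 3′ untranslated regions of mRNAs and repress their translation or speed their decay. In cortical precursors they have been studied together with the eIF4E-binding repressor 4E-T, as a way in which precursors hold mRNAs for later neuronal fates in a silent state. RNA immunoprecipitation recovers the RNAs that stay with a protein in a lysate, together with RNAs that stick to the beads or to any antibody. A precipitate is therefore usually read against both the starting RNA and a nonspecific antibody.

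The input arrays held the transcripts of the labelled tissue. The mean input signal was 10.78 for the precursor gene Sox2, 9.38 for the cortical regulator Emx2, 8.53 for the early neuronal gene Tbr1 and 10.62 for the migrating-neuron gene Dcx. Odorant, taste and vomeronasal receptor genes, which cortex is not known to use widely, had a median input signal of 3.18 over 1408 genes. Over genes, which are not independent of each other, the Pearson correlation between arrays was 0.9945 to 0.9952 within input, 0.9955 to 0.9964 within Pum2 and 0.9768 to 0.9792 between them. No array stood apart from its group. Pum2 mRNA itself measured 10.92, 10.93 and 10.82 in the input arrays and 11.91, 11.84 and 11.65 in the Pum2 arrays. Its groups did not overlap, and it was 1.88-fold higher in the precipitate (limma, adjusted p = 3.41e-05). Eif4enif1, which encodes 4E-T, measured 9.41, 9.41 and 9.26 in input and 10.21, 10.47 and 10.40 in Pum2, a difference of 1.00 with no overlap. For both genes these values are against input alone. On a list of 46 measured genes of the 4E-T, Pumilio and deadenylation machinery, members went both ways. Against input 20 (43.5%) were higher and 11 (23.9%) lower, beside 21.6% and 13.1% over all genes. In Pum2 over IgG 18 of the 46 were higher and 10 lower.

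Over all genes, 4793 (21.6%) were higher and 2895 (13.1%) were lower in the Pum2 precipitate than in input at an adjusted p below 0.05, by limma's moderated test with Benjamini-Hochberg adjustment over the 22180 genes. The 3 Pum2 arrays lay wholly above or wholly below the 3 input arrays for 10038 genes (45.3%). Over the 22180 genes, called enrichment was more frequent and shallower than called depletion. Over all 41345 features of the arrays, which include 16010 with no gene symbol, 5319 were higher and 6601 lower, so that 44.6% of the calls were higher. The median called difference was 0.51 (log2) for the higher genes and -0.62 for the lower ones. Called differences of at least 2-fold were found for 237 higher genes (1.07%) and 675 lower genes (3.04%). The largest enrichment was 1.50 and the largest depletion -5.45, and the 1st and 99th percentiles were -1.54 and 1.01. The median over all genes was 0.07.

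In the same fit, the IgG precipitate against input gave 1829 higher genes (8.25%) and 2155 lower genes (9.72%). Pum2 against IgG gave 4296 higher genes (19.4%) and 2519 lower genes (11.4%). These comparisons share arrays with the main one, so their values are set beside it as background and nothing is read from their overlap.

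The balance between higher and lower calls moved with how the arrays were scaled. As deposited, 62.3% of the called genes were higher. With the arrays centred on the genes above the median level, 52.2% were higher. With quantile normalisation repeated over all 41345 features of the table, 76.6% were higher, and the median of all genes moved from 0.07 to 0.19. The group differences below are given as deposited, and the sign of every median of Pum2 over input printed for a list of genes held under the 4 other scalings tried unless a sentence says otherwise.

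The share of genes called grew with the signal in the starting RNA. Genes were divided into 5 equal classes of 4436 by their mean over the 3 input arrays. In the lowest class 3.04% were higher and 2.28% were lower. In the third class 24.1% were higher and 9.56% were lower. In the fourth class 37.7% were higher and 21.0% were lower. In the highest class 36.3% were higher and 29.5% were lower. The counts of gene lists below are to be read beside these shares and beside the 21.6% higher and 13.1% lower over all genes. The lowest class held most of the receptor genes that cortex does not widely use, which made up 25.9% of its members, so it is close to the background of the array. Levels of different genes come from different probes, and their order is approximate.

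**Figure D1:**
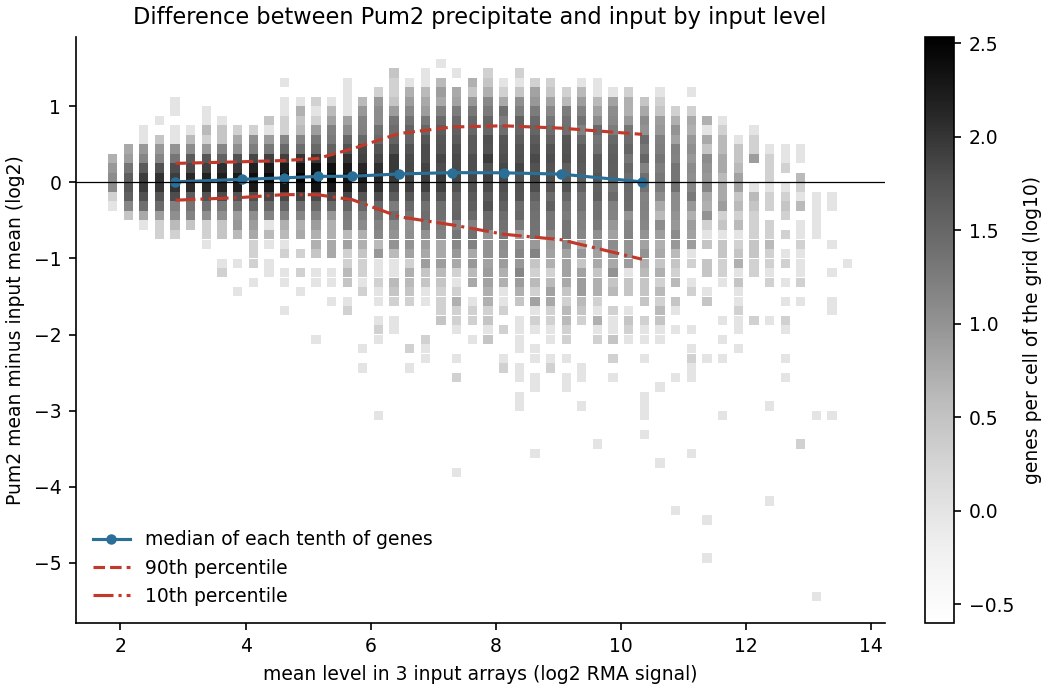
Difference between the mean of 3 Pum2 arrays and the mean of 3 input arrays (log2) against the mean input level (log2 RMA signal) for 22180 genes, drawn as counts on a grid, with the median and the 10th and 90th percentiles of 10 equal classes of genes. The median stays between 0.01 and 0.13, while the 10th percentile falls from -0.23 in the lowest class to -1.01 in the highest.

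The middle of the distribution hardly moved with the input level, while its spread widened and its lower tail lengthened. The class medians from the lowest class to the highest were 0.02, 0.07, 0.09, 0.13 and 0.06. Those of classes 1, 2 and 5 turned to -0.05, -0.0018 and -0.01 when the arrays were centred on the genes above the median level. The 10th percentile fell from -0.22 in class 1 to -0.91 in class 5, and the 90th percentile was 0.26 in class 1, 0.74 in class 4 and 0.68 in class 5. In class 4 the per-array medians of the deviation from the input mean were 0.11, 0.13 and 0.12 for Pum2 and lay between -0.03 and 0.03 for input (exact two-sided permutation test over arrays, p = 0.1, the smallest that 3 against 3 arrays allow). In class 1 the medians of the groups overlapped (exact p = 0.2), and in the other classes every Pum2 array lay above every input array.

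Called enrichment levelled off in the brighter genes and called depletion did not. In 10 equal classes, the share higher was 37.8% in the seventh, 37.6% in the eighth, 38.7% in the ninth and 33.9% in the highest. The share lower in the same classes was 19.1%, 22.9%, 25.4% and 33.6%. The input arrays both set these classes and enter the difference. With the classes set by the 3 IgG arrays, 39.9% of the highest class were higher and 27.3% were lower, and its median was 0.10 in place of 0.01. Depletion of at least 2-fold was found for 7, 13, 79, 203 and 373 genes from the lowest to the highest of the 5 classes set by input, and enrichment of at least 2-fold for 1, 5, 53, 105 and 73. In 5 classes set by the IgG arrays, the depleted genes numbered 11, 27, 93, 233 and 311 and the enriched ones 1, 3, 33, 103 and 97.

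**Figure D2:**
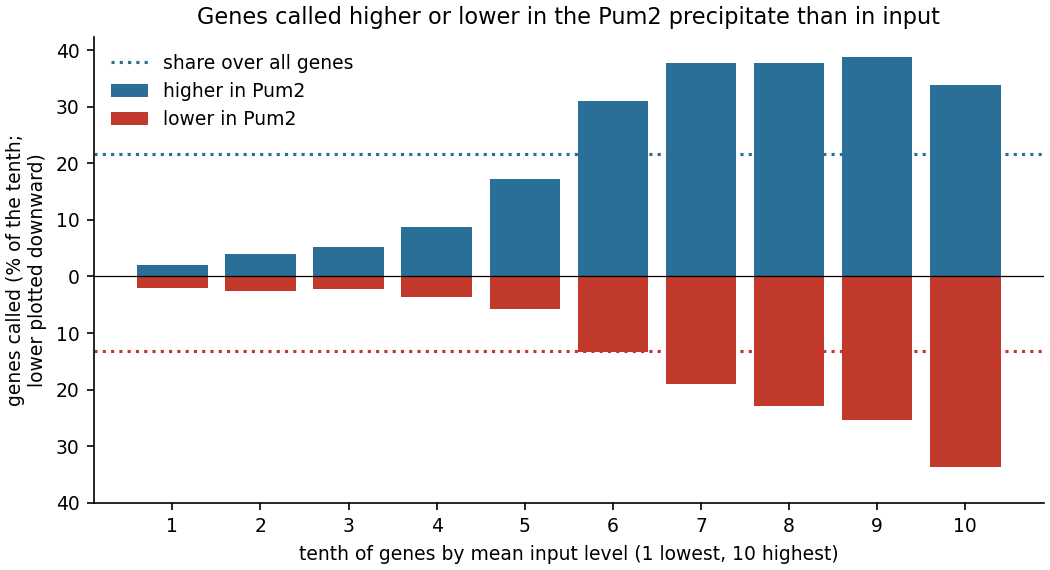
Percent of genes called higher (upward) or lower (downward) in Pum2 than in input at an adjusted p below 0.05, in 10 equal classes by mean input level, with dotted lines at the share over all genes, 21.6% higher and 13.1% lower. The share higher lies between 31.0% and 38.7% in the 5 brightest classes, and the share lower climbs from 13.4% to 33.6% over the same classes.

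By kind of gene, taken from RefSeq, enrichment was found mainly among protein-coding genes. Of 18961 protein-coding genes, 24.8% were higher and 12.1% were lower. Of 1926 long noncoding RNA genes, 2.39% were higher and 14.7% were lower. Of 171 pseudogenes, 4.09% were higher and 34.5% were lower. The long noncoding genes had a median input signal of 4.74 and the protein-coding genes one of 6.46, and calls were rarer at low signal in general.

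Among the gene lists, the deepest median depletion was of mRNAs made in mitochondria. All 10 measured mRNAs encoded by the mitochondrial genome were lower, by 1.53 to 4.95 (log2), with a median of -3.22. ND2, a subunit of respiratory complex I, measured 11.38, 11.62 and 11.31 in input, 11.30, 11.70 and 11.15 in IgG and 7.11, 7.26 and 6.57 in Pum2. The IgG arrays overlapped input, and the Pum2 arrays lay 22.0-fold below input (limma, adjusted p = 2.01e-07). CYTB, of complex III, was 11.1-fold lower. In the IgG precipitate 1 of the 10 was lower than input, and the median was -0.04.

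RNAs of the nuclear and nucleolar processing machineries were lower as well. Of 73 small nucleolar RNAs, which guide the modification of ribosomal RNA, 50 were lower and none were higher, with a median of -0.78. In IgG over input, 14 of the 73 were higher and 10 lower, with a median of -0.02. Snord104 measured 10.89, 10.71 and 10.57 in input and 6.94, 7.21 and 7.04 in Pum2, which put the Pum2 arrays 12.6-fold lower with no overlap. All 5 Cajal body RNAs, guides for the modification of spliceosomal RNA, were lower, with a median of -1.15. Of 8 structural RNAs, 7 were lower, with a median of -1.37, beside 5 lower and a median of -0.88 in IgG over input. The lowest was Rpph1, the RNA of ribonuclease P. It measured 13.09, 12.95 and 13.12 in input, 11.80, 12.09 and 12.05 in IgG and 7.36, 7.43 and 8.00 in Pum2, a 43.8-fold difference from input (limma, adjusted p = 5.51e-08). Part of that fall was present in IgG, where Rpph1 was lower than input by 1.07 (adjusted p = 0.00135). Small RNAs amplify and hybridise unlike mRNAs, and whether this moved with the precipitation was not tested.

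Of 15 measured RNAs on a list of nuclear and imprinted long noncoding RNAs, 5 were lower and 3 higher, with a median of -0.20. In IgG over input 7 of them were higher and none lower, with a median of 0.35. Malat1, an RNA of nuclear speckles, measured 11.77, 11.65 and 11.64 in input, 11.63, 11.69 and 11.38 in IgG and 8.92, 8.46 and 8.62 in Pum2. The IgG arrays overlapped input and the Pum2 arrays were 8.10-fold lower (adjusted p = 1.84e-07). Miat, another nuclear RNA, was lower by 1.26, and Kcnq1ot1, the antisense RNA of an imprinted domain, by 0.53. The 3 higher RNAs were the imprinted RNAs Peg13 at 0.81 and Rian at 0.51, and Norad. Norad is a cytoplasmic noncoding RNA known for its many Pumilio binding elements, and it measured 12.74, 12.83 and 12.81 in input, 13.30, 13.24 and 13.25 in IgG and 13.27, 13.18 and 13.30 in Pum2. Both precipitates lay above input with no overlap, Pum2 by 0.45 (SE 0.07, adjusted p = 0.000555) and IgG by 0.46 (adjusted p = 0.00147), and Pum2 and IgG overlapped (difference -0.01, SE 0.07, adjusted p = 0.917). Of 20 measured genes on a list of reported Pumilio targets, 14 were higher and 1 lower than input, with a median of 0.55 beside 0.18 for IgG over input. In Pum2 over IgG 13 of the 20 were higher and 2 lower, with a median of 0.37. That list was not re-run under the other scalings.

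Transcripts that host small nucleolar RNAs in their introns fell with them. Of 18, 13 were lower and 1 was higher, with a median of -1.23. Snhg3 was lower by 2.46, and Zfas1, measured at 11.15, 11.23 and 11.06 in input and 8.72, 8.77 and 8.66 in Pum2, by 2.43. In IgG over input the median of the group was -0.32.

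Features for microRNA genes were mostly at low signal. Of 483, 93 were lower and 15 were higher, with a median of -0.08 that turned to 0.04 under quantile normalisation over all features. Among the 119 in the 3 upper input classes, 47 were lower and 3 were higher, and the median was -0.25. RefSeq mature sequences matched 420 of the 483. The 6 genes with a sequence that fell furthest from input to Pum2 are shown to identify them. They were taken from the 3 upper input classes, among genes called lower with no overlap. For each, 1 mature arm is printed 5′ to 3′, with bases 2 to 8, the seed that pairs with targets, in capitals. Coordinates are those of RefSeq on GRCm38.p6.
mmu-miR-1983 (chr13:21896930-21896950, minus strand): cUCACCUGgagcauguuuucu
mmu-miR-130a-3p (chr2:84741116-84741137, minus strand): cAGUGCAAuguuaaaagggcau
mmu-miR-3089-5p (chr2:30721222-30721243, plus strand): uGAGUUCAgggacagcgugucu
mmu-miR-670-3p (chr2:94261316-94261340, minus strand): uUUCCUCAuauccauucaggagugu
mmu-miR-692 (chr17:6895259-6895279, minus strand): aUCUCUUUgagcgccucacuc
mmu-miR-505-3p (chrX:60394416-60394437, minus strand): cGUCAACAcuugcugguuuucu
The 10 mature arms of these 6 genes had 10 distinct seeds, so none was shared. Mir130a measured 6.47, 5.36 and 5.89 in input, 4.67, 5.42 and 5.45 in IgG and 3.56, 3.18 and 3.78 in Pum2. Its Pum2 arrays lay below every input and IgG array, with a difference from input of -2.40 (SE 0.29, adjusted p = 0.000109). Mir1983 was lower by 3.81, Mir3089 by 2.31, Mir670 by 2.00, Mir692-1 by 1.84 and Mir505 by 1.65. Whether these features read the precursor, its host transcript or the mature RNA was not tested.

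Among coding transcripts, mRNAs for ribosomal proteins were widely depleted. Of 66 cytosolic ribosomal protein genes, 53 were lower and 3 were higher, with a median of -0.79 against -0.46 in IgG over input. Rpl29 measured 12.51, 12.54 and 12.46 in input, 12.01, 12.01 and 11.88 in IgG and 10.70, 10.84 and 10.67 in Pum2. The 3 groups were ordered with no overlap, and Pum2 was 3.40-fold below input (adjusted p = 2.30e-07). Of the 3 higher members, Rps4l and Rpl32l are near copies of other ribosomal protein genes, and Rps16 had a low input signal of 5.15 to 5.67. Ribosomal protein mRNAs have many near-identical processed copies, so the split of signal between members is uncertain.

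Genes for the mitochondrial ribosome and the respiratory chain that are encoded in the nucleus were also mostly lower, in both precipitates. Of 71 mitochondrial ribosomal protein genes, 49 were lower and 3 higher, with a median of -0.46, beside 62 lower and none higher in IgG over input, with a median of -0.55. Of 33 complex I genes, 27 were lower and 5 higher, with a median of -0.76 beside -0.72 in IgG. Of 46 genes of complexes II to V, 27 were lower and 6 higher, with a median of -0.38 beside -0.46. In Pum2 over IgG the medians of these 3 groups were 0.07, -0.13 and -0.01.

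Within these complexes the members went both ways. Ndufc1, a small accessory subunit of complex I, measured 8.24, 8.18 and 8.21 in input, 7.48, 7.48 and 7.43 in IgG and 5.86, 5.99 and 5.89 in Pum2, 4.93-fold lower than input. Ndufs7, a core subunit of the same complex, measured 9.53, 9.55 and 9.55 in input, 9.37, 9.28 and 9.28 in IgG and 10.15, 10.38 and 10.17 in Pum2, 1.61-fold higher. Neither gene's Pum2 arrays overlapped its input arrays, and they moved in opposite directions from input. In ATP synthase the epsilon subunit gene Atp5e was lower by 2.35, and the catalytic beta subunit gene Atp5b was higher by 0.44. In the mitochondrial ribosome Mrpl42 was lower by 2.52 and Mrps27 higher by 0.94. In the translocation machinery of the endoplasmic reticulum the small gamma subunit gene Sec61g was lower by 2.11, while Rpn1, Rpn2 and Ddost of the oligosaccharyl transferase were higher by 0.54, 0.61 and 0.39.

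Other housekeeping groups also had members on both sides. Of 27 genes for Sm and Lsm proteins and their assembly factors, 17 were lower and 3 higher, with a median of -0.32, beside 15 lower and a median of -0.40 in IgG over input. Lsm5 was lower by 2.48, and Gemin5, a large RNA-binding assembly factor, was higher by 0.65. Of 39 histone genes, 14 were lower and 1 was higher, with a median of -0.28 (3 higher without input replicate 3 and 2 without Pum2 replicate 3). In IgG over input 17 of the 39 were lower, with a median of -0.38, and in Pum2 over IgG 8 were higher and 3 lower. H4c14 was the lowest at -2.60, and the copies of a histone gene are alike enough that their signals are uncertain. Of 47 translation initiation and elongation factor genes, 17 were lower and 13 higher, with Eif4a1 lower by 0.89 and Eif2b4 higher by 0.58, beside 18 lower and 1 higher in IgG. Of 31 translocon and signal peptidase genes, 12 were lower and 4 higher, beside 12 lower and 2 higher in IgG over input.

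The differences varied with gene span. Span is the length of a gene on the chromosome with its introns, taken from RefSeq for 12317 protein-coding genes in the 3 upper input classes and divided into 5 equal classes. From the shortest to the longest class, the median difference between Pum2 and input was 0.02, 0.06, 0.11, 0.18 and 0.29. The share higher was 21.2%, 28.2%, 33.9%, 40.4% and 51.1%, and the share lower was 28.1%, 22.2%, 17.0%, 13.5% and 8.44%. The median input level of the span classes ran from 7.33 to 8.10. With the arrays centred on the genes above the median level the 5 medians were -0.05, -0.01, 0.04, 0.10 and 0.22, and with quantile normalisation over the genes that of the shortest class was -0.03. The order by span held under the 4 other scalings.

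The IgG precipitate varied with gene span as well. Its medians over input in the same 5 classes were -0.11, -0.08, -0.04, 0.04 and 0.16. Pum2 over IgG stayed between 0.08 and 0.15 in all of them, with no order by span. The dependence was steepest in the brightest genes. In input class 5 the Pum2 medians ran from -0.31 for the shortest genes to 0.30 for the longest, and 53.5% of the shortest were lower. In input class 3 they ran from 0.08 to 0.25. Span, transcript length, exon number and number of probes were not separated.

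**Figure D3:**
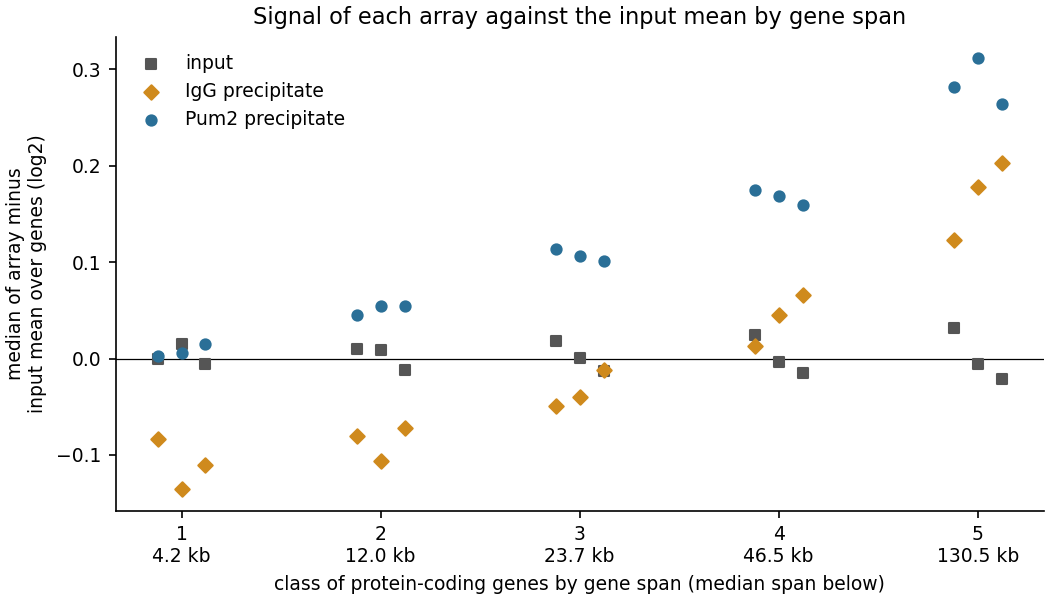
Median over genes of each array's signal minus the mean of the 3 input arrays (log2), for 3 input, 3 IgG and 3 Pum2 arrays, in 5 equal classes of protein-coding genes by gene span, with the median span of a class in kb below it. The Pum2 medians rise from 0.02 in the shortest class to 0.29 in the longest and the IgG medians from -0.11 to 0.16, as differences of group means.

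Membrane receptors were widely enriched. Of 37 receptor tyrosine kinase genes, 30 were higher and none were lower, with a median of 0.69 beside 0.18 in IgG over input and 0.43 in Pum2 over IgG. Kit, the receptor for stem cell factor, measured 9.24, 9.18 and 9.25 in input, 9.75, 9.76 and 9.80 in IgG and 10.41, 10.47 and 10.42 in Pum2. The 3 groups did not overlap, and Pum2 was 2.31-fold above input (adjusted p = 8.36e-07). Fgfr1, a receptor that keeps cortical precursors dividing, measured 9.61, 9.51 and 9.54 in input, 9.58, 9.59 and 9.66 in IgG and 10.42, 10.40 and 10.43 in Pum2. Here IgG overlapped input, and Pum2 was 1.82-fold above input (adjusted p = 6.86e-06). Erbb2 was higher by 0.95 and the insulin receptor Insr by 0.88.

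Adhesion molecules and large endocytic receptors were higher too, but with much of the difference present in IgG. Of 43 cadherin superfamily genes, 26 were higher and none were lower, with a median of 0.43 beside 0.23 in IgG over input. Fat1, a giant protocadherin, measured 9.79, 9.77 and 9.70 in input, 10.41, 10.51 and 10.47 in IgG and 10.78, 10.73 and 10.65 in Pum2. Both precipitates lay above input, and the difference of Pum2 from IgG was 0.25 (adjusted p = 0.0215). Of 13 LDL receptor family genes, 11 were higher, with a median of 0.38. Lrp1, a large endocytic receptor, measured 8.49, 8.42 and 8.36 in input, 9.32, 9.68 and 9.50 in IgG and 9.45, 9.56 and 9.34 in Pum2. Its Pum2 and IgG arrays overlapped (difference -0.05, SE 0.10, adjusted p = 0.779), while both lay above input, Pum2 by 1.03. Of 23 clustered protocadherin genes, 13 were higher, and the median was 0.51 over input beside 0.52 for IgG. These are near-identical neighbours whose signals cannot be fully separated.

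Integrin, matrix and axon guidance genes leaned the same way. Of 25 integrin genes, 15 were higher and none were lower, with a median of 0.54 beside 0.12 in IgG. Itgav was higher by 1.00 and Itgb1 by 0.68. Of 54 collagen and laminin genes, 22 were higher and none were lower, with a median of 0.28 beside 0.08 in IgG over input, where 13 were higher. Lamb2 was higher by 1.05. Of 55 axon guidance receptors and ligands, 44 were higher and none were lower, with a median of 0.63. In IgG over input 27 of them were higher, with a median of 0.29. In Pum2 over IgG 26 were higher and 1 lower, with a median of 0.26. Unc5b, a netrin receptor, was higher than input by 1.33. Of 345 solute carrier genes, 89 (25.8%) were higher and 24 lower, with a median of 0.11, a share near the 24.8% over protein-coding genes. Slc7a1, the cationic amino acid transporter, measured 8.84, 8.89 and 8.66 in input, 9.32, 9.48 and 9.33 in IgG and 10.08, 10.19 and 10.11 in Pum2, 2.51-fold above input with no overlap among the 3 groups.

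Some enriched groups were at input level in IgG. Of 18 aminoacyl-tRNA synthetase genes measured, 12 were higher and none were lower, with a median of 0.48 over input, 0.04 for IgG over input and 0.51 for Pum2 over IgG. Wars, which charges tryptophan tRNA, measured 10.40, 10.38 and 10.42 in input, 10.20, 10.10 and 10.30 in IgG and 11.20, 11.19 and 11.09 in Pum2. Its IgG arrays lay below input and its Pum2 arrays 1.70-fold above it (adjusted p = 3.03e-05). Of 14 glycolysis genes, 10 were higher and none were lower, with medians of 0.43, -0.09 and 0.53 in the same order. Pfkl, a phosphofructokinase, measured 8.22, 8.06 and 8.10 in input, 7.96, 7.80 and 8.06 in IgG and 9.04, 8.99 and 9.08 in Pum2, 1.88-fold above input with no overlap.

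Lysosomal genes followed that pattern, with 22 of 35 higher and 2 lower (1 when input replicate 1, 2 or 3, IgG replicate 1 or Pum2 replicate 1 or 3 was left out), and medians of 0.37 over input, -0.05 for IgG over input and 0.52 for Pum2 over IgG. Npc1, which exports cholesterol from lysosomes, measured 6.72, 6.82 and 6.64 in input and 7.90, 7.89 and 8.00 in Pum2, 2.31-fold higher. The proteases Ctsl and Ctsd were higher by 1.14 and 0.85. Npc2, a carrier of cholesterol in the lysosome, was lower by 0.42. Of 36 genes for replication licensing factors and DNA polymerases, 22 were higher and 4 lower, with a median of 0.42 beside -0.02 for IgG. Pold1, the catalytic subunit of polymerase delta, was higher by 0.93, and the small subunit genes Orc6 and Rpa3 were lower by 1.15 and 1.08.

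Proteasome subunit genes gave different pictures against the different references. Over input, 13 of 38 (34.2%) were higher and 4 (10.5%) lower, with a median of 0.10. Over all genes of the highest input class the shares were 36.3% and 29.5%. Over IgG, 25 of 38 were higher and 1 was lower, with a median of 0.33, and IgG itself was below input for 17 of them. Of 8 genes for the cytosolic chaperonin, 5 were higher and none lower, with a median of 0.26, and the 5 became 3 without input replicate 2 or 3 or Pum2 replicate 1 or 3. The 13 proteasome genes became 8 without input replicate 1, 7 without input replicate 2 or Pum2 replicate 1, 6 without Pum2 replicate 3 and 6 with the arrays centred on the genes above the median level. Of 19 nucleoporin genes 10 were higher, with Nup133 at 1.06, and of 39 kinesin and dynein heavy chain genes 21 were higher, with Kif26a at 0.92. The nucleoporin medians were 0.30 over input, 0.22 for IgG over input and 0.18 for Pum2 over IgG. Those of the motor genes were 0.30, 0.15 and 0.17 in the same order. No nucleoporin gene was lower. No motor gene was lower as deposited, and 1 was lower under 3 of the 4 other scalings and without IgG replicate 3.

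Immediate early genes, which are transcribed within minutes of a stimulus and tend to be short, were enriched as well. Of 30 measured, 17 were higher and none were lower, with a median of 0.36 beside 0.03 for IgG over input, and the median span of the group was 3.62 kb against 23.7 kb for protein-coding genes of the 3 upper input classes. It was 73.4 kb for receptor tyrosine kinase, 108 kb for axon guidance and 113 kb for cadherin superfamily genes. In groups mostly lower, it was 3.15 kb for cytosolic ribosomal protein genes and 7.80 kb for complex I genes. Some other groups with more members higher than lower also had median spans below 23.7 kb. They were 3.44 kb for clustered protocadherin, 9.58 kb for radial precursor and 18.6 kb for lysosomal genes. The part of span in the differences of these groups was not tested. Nr4a1, an orphan nuclear receptor, measured 7.06, 7.20 and 7.12 in input, 7.34, 7.43 and 7.60 in IgG and 8.58, 8.78 and 8.52 in Pum2. Its 2.83-fold difference from input was the largest enrichment of all genes (adjusted p = 2.24e-06). Jun, a subunit of AP-1, measured 10.70, 10.60 and 10.74 in input and 11.78, 11.84 and 11.88 in Pum2, 2.23-fold higher. Ier5 and the kinase gene Sik1 were higher by 1.17 and 1.20.

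**Figure D4:**
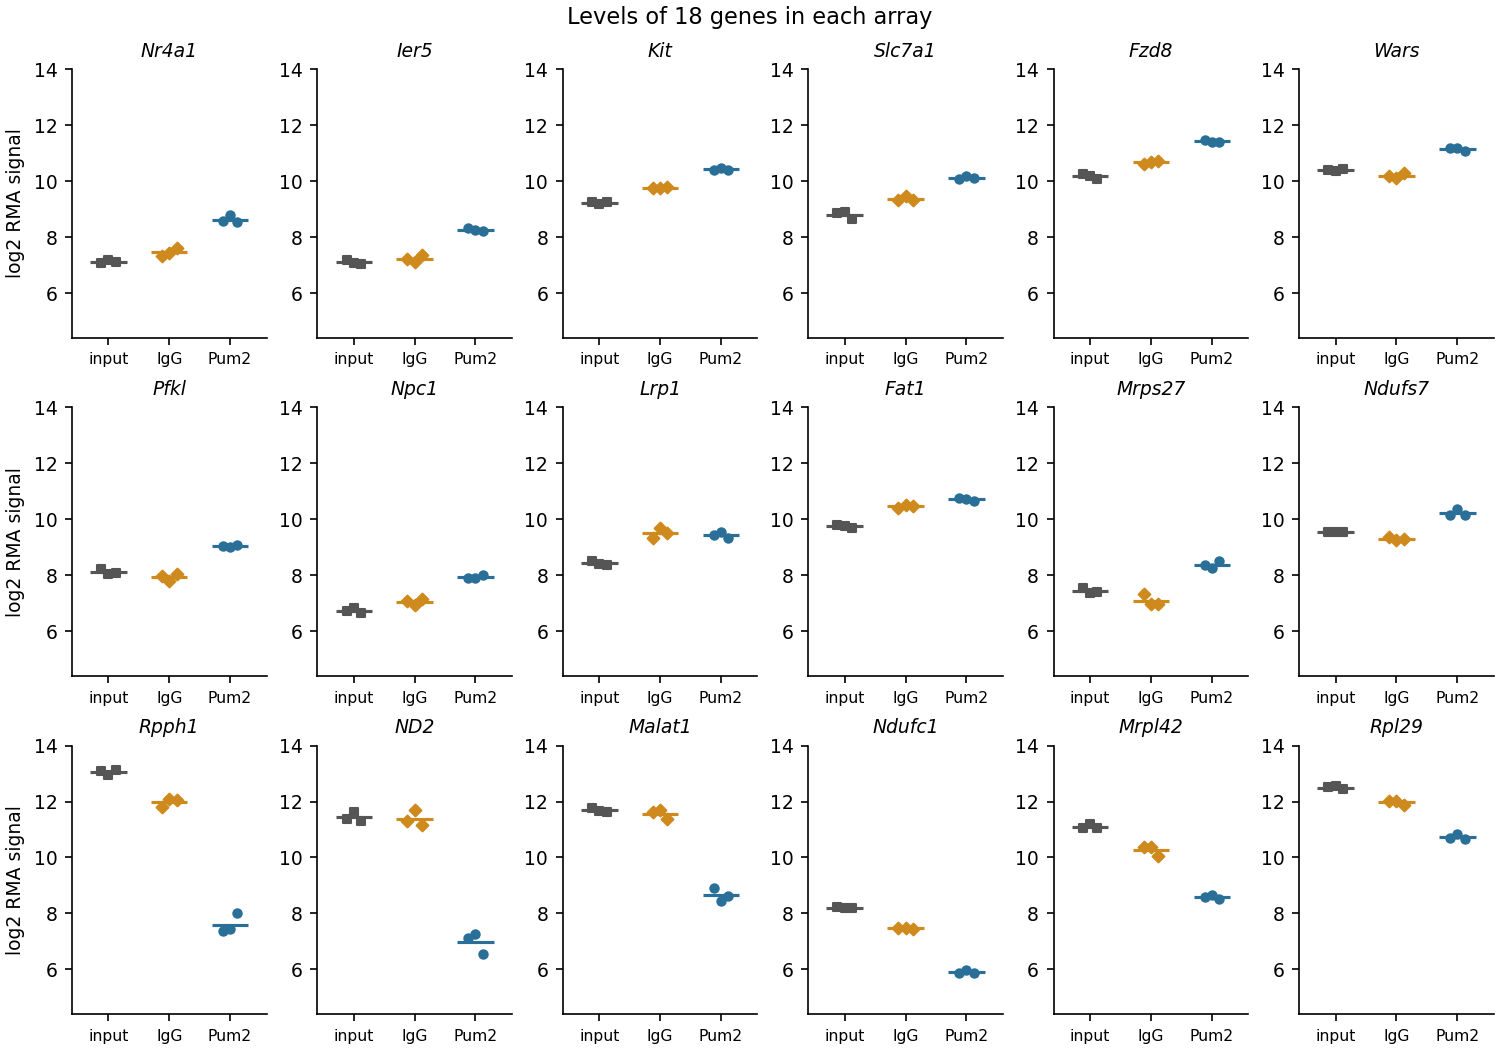
Log2 RMA signal of 18 genes in each of 3 input, 3 IgG and 3 Pum2 arrays, with a bar at each group mean. The genes in the upper 2 rows lie higher in Pum2 than in input. Some of them, Lrp1 and Fat1 included, also lie higher in IgG than in input. The 6 genes of the lowest row lie lower in Pum2, Rpph1 with means of 13.05 in input and 7.60 in Pum2.

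In the brightest class the largest were Prr12, a nuclear proline-rich protein, at 1.34, followed by Slc7a1, the glutamine transporter Slc38a2 at 1.29, the purine synthesis enzyme Atic at 1.25, the heparan sulfate proteoglycan Sdc3 at 1.25 and the Wnt receptor Fzd8. Fzd8 measured 10.25, 10.17 and 10.09 in input, 10.61, 10.67 and 10.73 in IgG and 11.46, 11.40 and 11.39 in Pum2, with all 3 groups apart. In class 4 they included the NF-kappaB inhibitor Nfkbia at 1.39, the glutathione synthesis enzyme Gclc at 1.43 and the retrotransposon-derived gene Rtl6 at 1.38. Rtl6 was at input level in IgG (difference 0.01). In class 3 the transcription factor gene Hivep2 measured 6.55, 6.56 and 6.37 in input, 7.23 in all 3 IgG arrays and 7.96, 8.00 and 7.82 in Pum2, a difference of 1.43. Here too all 3 groups were apart.

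Some coding genes outside the groups above were among the 6 most depleted of their input class with a symbol that is not provisional. They included Hacd1 and Ap3s1 in class 3 and Snapc5 in class 4. Not every depleted gene is named, and class 5 held 373 genes lower at least 2-fold. Hacd1, an enzyme of fatty acid elongation, measured 6.33, 6.47 and 6.48 in input, 5.85, 5.80 and 5.72 in IgG and 4.51, 4.68 and 4.73 in Pum2. It was 3.45-fold below input, with all 3 groups apart (adjusted p = 3.73e-07). Ap3s1, a small subunit of an endosomal adaptor, was lower by 1.62, and Snapc5, a subunit of the small nuclear RNA activating complex, by 2.39.

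**Figure D5:**
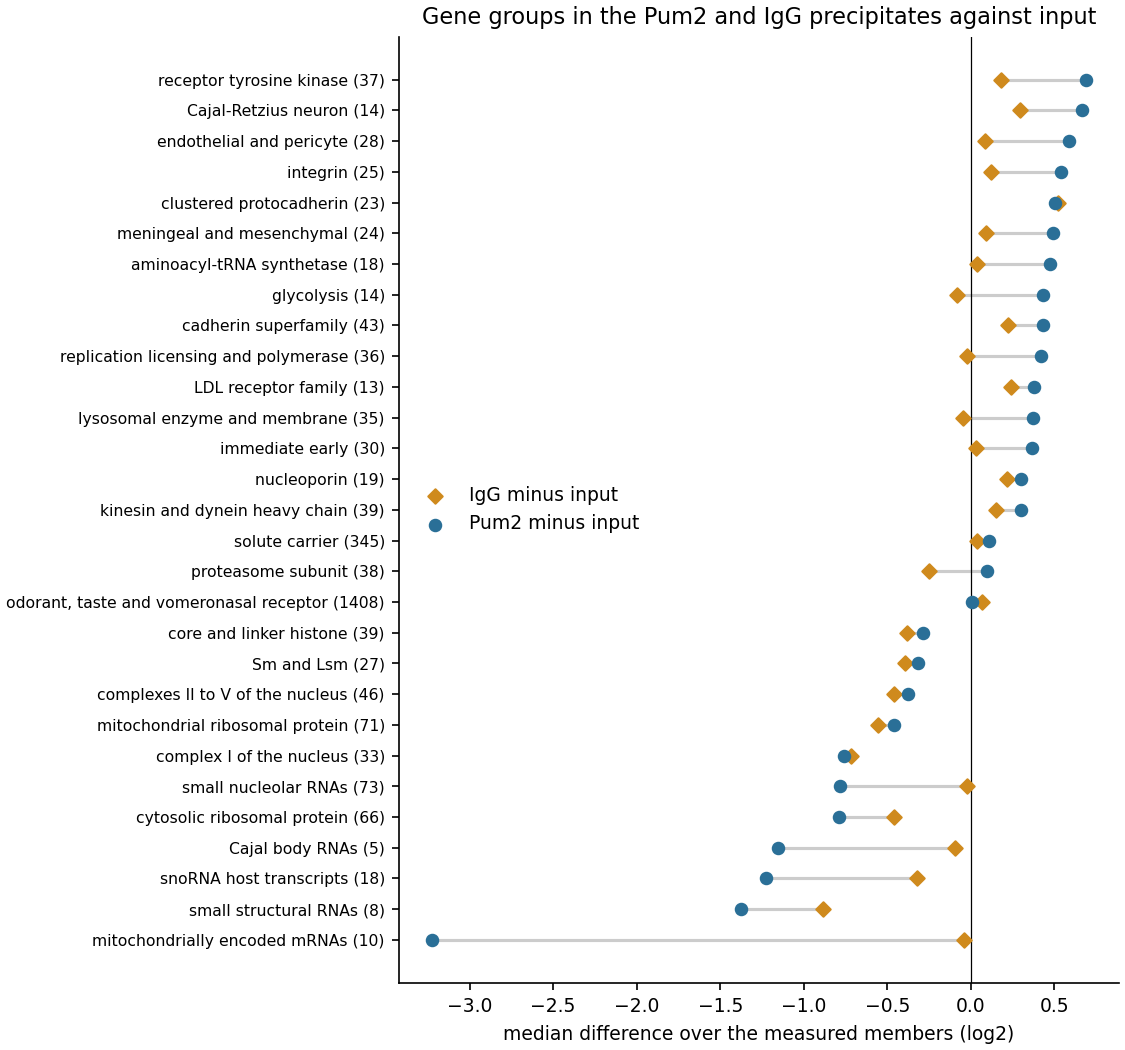
Median log2 difference over the measured members (number in brackets) of 29 gene groups, for Pum2 minus input (circles) and IgG minus input (diamonds). Groups run from mitochondrially encoded mRNAs at -3.22 to receptor tyrosine kinases at 0.69, and the IgG median is close to the Pum2 median for clustered protocadherins and complex I and near 0 for mitochondrially encoded mRNAs and glycolysis.

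Markers of cells other than cortical precursors and neurons were present in input, and some of their groups were enriched, as were groups of the cortical cells themselves. Precipitate and input both came from whole-cortex lysates, so a difference of a list is one of RNA recovered, and numbers of cells were not measured. The labels do not say whether same-numbered samples share a lysate. Of 28 endothelial and pericyte genes, 18 were higher and 2 lower, with a median of 0.59 beside 0.09 for IgG over input. The mean over the list was 7.10 to 7.20 in the input arrays, 7.20 to 7.36 in IgG and 7.59 to 7.71 in Pum2. The endothelial cadherin gene Cdh5 was higher by 0.91, and the pericyte gene Rgs5 was lower by 0.51. Of 24 meningeal and mesenchymal genes, 18 were higher and 1 was lower, with a median of 0.49 beside 0.09 for IgG.

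Among the cortical lineages, 17 of 26 radial precursor genes were higher and 3 lower, with a median of 0.49 beside 0.13 for IgG over input. Of 18 deep-layer neuron genes, 11 were higher and 2 lower, with a median of 0.35 beside 0.34 for IgG. The 2 became 1 without input replicate 1, input replicate 2 or any 1 of the Pum2 replicates. Of 12 upper-layer neuron genes, 5 (41.7%) were higher and 1 (8.33%) lower, with a median of 0.23 beside 0.16. In input class 4, where the median input level of that list falls, 37.7% of all genes were higher and 21.0% lower. Of 14 Cajal-Retzius neuron genes, early neurons of the cortical surface, 10 were higher, with a median of 0.67 beside 0.29 for IgG, in which 7 were higher. In Pum2 over IgG 5 of the 14 were higher, with a median of 0.17. None of the 14 was lower than input as deposited, and 1 was lower with the arrays centred on the genes above the median level or without IgG replicate 2.

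Blood and immune markers did not share that shift. Of 14 red blood cell genes, none were higher and 3 were lower (1 without input replicate 2 or Pum2 replicate 3), and 2 were higher without IgG replicate 2. The embryonic globin gene Hbb-bh1 measured 10.91, 11.27 and 10.67 in input, 10.43, 11.01 and 10.02 in IgG and 9.75, 10.21 and 9.40 in Pum2, 2.24-fold below input (adjusted p = 0.00592). Its arrays spread widely within each group, and replicate 2 was the highest and replicate 3 the lowest in all 3 groups. Of 23 microglia and macrophage genes, 5 (21.7%) were higher and 3 (13.0%) lower, near the 21.6% and 13.1% over all genes. The 5 became 1 to 3 without any 1 of input replicate 1 or 3 or of the Pum2 replicates. None of 15 choroid plexus and dorsal midline genes was called as deposited, and 1 or 2 were called without input replicate 1, input replicate 3 or Pum2 replicate 3. With the replicate number as a block, 1 of the 15 was higher and 1 lower. The mean over this list was 6.57, 6.29 and 5.87 in input replicates 1, 2 and 3, 6.38, 6.25 and 5.78 in IgG and 6.62, 6.40 and 5.92 in Pum2, so it followed the replicate number in all 3 groups. With quantile normalisation over all features, 2 genes of the red blood cell group and 2 of the choroid plexus group were higher. Among ganglionic eminence and interneuron genes, 8 of 20 were higher (5 without input replicate 2), and Dlx5 was higher by 1.25. Among intermediate progenitor genes, 11 of 16 were higher (7 without input replicate 1 or 2, and 7 under 2 of the 4 other scalings), with the Notch ligand gene Dll1 at 1.05, and 1 was lower, Neurod4 at -0.68, a call lost without Pum2 replicate 1 (limma, adjusted p = 0.0509). The part of cell mixture in these differences was not tested.

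Background genes lay near their input level. Of the 1408 odorant, taste and vomeronasal receptor genes, 42 were higher and 38 lower (24 without Pum2 replicate 1), and the median was 0.0043. The sign of that median follows the scaling, from -0.07 with arrays centred on the genes above the median level to 0.15 with quantile normalisation over all features.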

How the data were processed

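RNA of the embryonic cortex was measured on Mouse Gene 2.0 ST arrays, 3 each of input RNA, IgG precipitate and Pum2 precipitate. Precipitation used a Magna RIP kit and RNA was amplified with a GeneChip Pico kit, per the labels' protocols. The deposited values are log2 signals made by the authors with RMA in Affymetrix Expression Console, per the submitters' processing notes. Not given in the sources used here are software versions, the genome build and any scan batches. The table holds 41345 features, of which 23521 carry 1 gene symbol, 1814 several and 16010 none in the platform annotation, which may be old. For 1082 genes with more than 1 such feature, the one with the highest mean over the 9 arrays was kept, which left 22180 genes, 21994 of them matched to RefSeq (GRCm38.p6) by Entrez number for kind of gene, span and miRNA sequence.

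One limma fit (version 3.58.1, R 4.3.3) covered the 9 arrays in 3 groups with 6 residual degrees of freedom. Genes with an adjusted p below 0.05 (Benjamini-Hochberg over all genes) were called, with no fold threshold and no replicate block. The fit was tested on simulated data. Input classes were 5 equal groups by the mean of the 3 input arrays. Named genes were the 6 largest differences in each direction in each of the 3 upper classes, among called genes with no overlap between the groups. Provisional symbols and small RNAs were left out of these. Up to 4 called members per list and direction were added by moderated t, with no rule on overlap. Pum2, Eif4enif1, markers of the tissue and the microRNA genes shown were named as well. Genes and 61 gene lists were chosen with earlier results of these data known, and the patterns that collect integrin and translation factor genes were corrected after their members were seen. Alternatives were other samples in the fit, a replicate block, a level filter, a trended robust prior, other scalings, the mean over a gene's features, other input classes, all features and 1 array left out at a time. Precision is limited by the number of arrays. The labels call the replicates biological without naming embryos or litters, so p-values measure the spread between these samples. The 3 arrays of a group gave equal values for 1.14% of genes in input, 1.21% in IgG and 1.28% in Pum2.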

Additional observations from a re-analysis of the deposited data

Results flagged for a closer look

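A signal appeared in data that the gene-level comparison leaves out. Among 16010 features of the arrays that carry no gene symbol in the annotation used here, 831 lay higher in Pum2 than in input RNA and 3339 lower, in a limma fit over all 41345 features (adjusted p below 0.05). Their median difference was -0.11, and 19.9% of their calls were higher, against 62.3% of the calls among named genes. Among 1814 features with several symbols, 130 were higher and 422 lower. What these features measure was not tested.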

How the results depend on the processing

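The counts of higher and lower genes, 4793 and 2895, kept within 1.5 times of these values in every alternative but 2. Quantile normalisation over all features of the table, an alternative added after the data were seen, gave 7845 higher genes, and testing all features, also added later, gave 6601 lower features. Leaving out 1 array at a time gave 4072 to 4783 higher and 2528 to 2909 lower genes. Genes higher at least 2-fold numbered 237, 147 with the arrays centred on the genes above the median level, 363 with quantile normalisation over all features and 234 to 286 without 1 array. Genes lower at least 2-fold numbered 646 to 715 without 1 array. Higher genes made up 62.3% of the calls, and 62.8% over genes at or above the median level, 55.8% with quantile normalisation over the genes, 52.2% with centring on the genes above the median level, 60.5% with centring on receptor genes, 76.6% with quantile normalisation over all features and 61.4% to 62.2% without 1 array. The median over all genes, 0.07, was 0.117, 0.0291, -0.0054, 0.0517 and 0.189 in the same order of settings, and 0.0553 to 0.0723 without 1 array.

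By input class, centring on the genes above the median level turned the medians of classes 1, 2 and 5 to -0.0470, -0.0018 and -0.0133 and gave 0.0217 and 0.0549 in classes 3 and 4. Quantile normalisation over the genes gave 0.0261, 0.0454, 0.0698 and 0.0004 in classes 2 to 5. Quantile normalisation over all features gave 0.17, 0.18, 0.26 and 0.23 in classes 1 to 4. Centring on receptor genes gave 0.0788 in class 3. Classes set by the IgG arrays gave 0.117 in class 5, and classes set by the Pum2 and input arrays gave 0.0837 in class 3 and 0.149 in class 5. Classes set by 1 input array, with the difference taken against the other 2, gave 0.0821, 0.109 and 0.112 in class 3 for input replicates 1, 2 and 3, and 0.0731 in class 5 for replicate 1. The lowest and highest of 10 classes had medians of 0.0061 and 0.0064. Without 1 array the medians ran from 0.0168 to 0.0356 in class 1, 0.0436 to 0.0835 in class 2, 0.0758 to 0.104 in class 3, 0.112 to 0.135 in class 4 and 0.0511 to 0.0656 in class 5. The cause of these changes was not tested.

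Same-numbered samples were not treated as pairs in the main fit, and the labels do not say whether they share a lysate. The deviations of same-numbered input and Pum2 arrays from their group means correlated at 0.05, 0.13 and 0.14 over genes. Those of differently numbered arrays correlated at -0.12 to -0.00297, so each array correlated best with its own number. With the replicate number as a block, 4855 genes were higher and 2910 lower, of which 4577 and 2785 had the same call without it. Under the block, 1 red blood cell gene and 1 choroid plexus gene became higher, 1 choroid plexus gene became lower, and lower deep-layer neuron genes went from 2 to 1.

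Of 87 genes named in the text, 86 kept their call in every fit that held them, and Neurod4 lost it under 2 settings (adjusted p = 0.0509 without Pum2 replicate 1 and 0.051 with quantile normalisation over all features). Over 44 gene groups of the text, 1494 of 1584 counts of called genes stayed within 1.5 times of the main one. With quantile normalisation over all features, higher counts went from 42 to 191 for odorant, taste and vomeronasal receptors, from 89 to 157 for solute carriers, from 22 to 34 for collagens and laminins and from 15 to 55 for microRNA genes. The medians of 4 of 44 groups changed sign under at least 1 setting, those of microRNA, receptor, microglia and macrophage, and red blood cell genes. The planned split by protein features was not run, since no protein sequences were used here, and gene span, added with its scalings after the data were seen, took its place. Every fit rests on 3 arrays a group, and in the lowest input class, near the background of the arrays, 3.04% of genes were higher and 2.28% lower.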
